A study of Homo sapiens with 4 samples.

Results

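The cassette exons of long noncoding RNA genes were examined in MDA-LM2 cells, a lung-metastatic derivative of the human breast cancer line MDA-MB-231. The exons were chosen by annotation and depth, not by their response. A skipped exon was included when it matched, on the same strand, an exon of a GENCODE release 29 gene of type lincRNA, antisense, processed transcript, sense intronic or sense overlapping and of no protein-coding gene. It also had to be listed in both groups with at least 5 isoform-specific reads in the scrambled group. These rules gave 1172 exons in 628 genes, out of 39120 distinct skipped exons. Of the 1172, 432 lay in lincRNA genes, 409 in antisense genes, 321 in processed transcript genes, 7 in sense overlapping genes and 3 in sense intronic genes, and 18 also matched a pseudogene exon.

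Cells had received by lipofection either a scrambled oligo or an RNA named the SSE mimetic. Each group had 2 of the 4 samples, and nothing else in the labels separated the groups. SSE stands for structured splicing enhancer, a folded RNA element thought to promote exon inclusion. The comparison addressed what the mimetic does to the transcriptome. The deposited tables hold 1 pooled read set per group, so no spread between samples can be given and every difference below is between 2 pools. The sequence and dose of the mimetic were not analysed here.

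Long noncoding RNAs are transcripts without a long reading frame that are spliced by the same machinery as messenger RNAs. Many are spliced less efficiently, are retained in the nucleus and use alternative exons often. Some act in their spliced form in the cytoplasm, while others serve mainly as hosts, with small nucleolar RNAs or microRNAs cut from their introns.

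The inclusion of an exon was measured as percent spliced in (Ψ), the fraction of transcripts that keep the exon, estimated by MISO with a 95% credible interval. MISO uses inclusion reads (compatible with the inclusion isoform alone), skipping reads (compatible with the skipping isoform alone) and shared reads (compatible with both). Exons with 10 or more inclusion plus skipping reads in both groups were tested. A call required a Ψ difference of 0.1 or more together with an authors' Bayes factor, which weighs evidence for a difference against evidence for none, of 10 or more. As a check on single exons, Ψ was recomputed from the read classes with a 2-isoform likelihood. It was run on the reads as deposited, with the scrambled reads scaled down, or after subtracting the read density of the flanking introns. Scaling was done exon by exon, to that exon's inclusion, skipping and shared reads in the SSE mimetic pool, and never upward. Differences are Ψ with the SSE mimetic minus Ψ with the scrambled oligo.

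The largest cluster of called exons lay in a pair of copied genes on chromosome 2, CYTOR and MIR4435-2HG, so their exon sequences are shown first. CYTOR, also known as LINC00152, is a mostly cytoplasmic RNA that is abundant in many tumours, and MIR4435-2HG, the host gene of a microRNA, is its duplicate. The 385-nt exon of CYTOR (hg38 chr2:87480223-87480607, plus strand) and that of MIR4435-2HG (chr2:111469603-111469987, minus strand) differ at 4 positions, T6C, G52A, T98C and C259T. Positions count from 1 at the exon's 5′ end, with the CYTOR base first. The first 30 bases, from GENCODE transcripts and with the differing base in capitals, show how little separates reads of the copies.
CYTOR: actcaTgcccaaagttacggaggacccagc
MIR4435-2HG: actcaCgcccaaagttacggaggacccagc

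The same CYTOR exon exists in 3 forms that share their start and differ in where they end. The last 30 bases of the 385-nt, 201-nt and 140-nt forms follow, with the final 2 bases of the exon in capitals, because only the longest form was called.
CYTOR 385 nt: tagacctgagaatgaagtaaggtgcttcAG
CYTOR 201 nt: ccacattccaacctccgtctgcatccctCG
CYTOR 140 nt: atggcttgaacatttggtcttcattgaaCA
An exon ending in AG has the most common last bases of human exons. Such an end was found in 50.0% of the tested long noncoding RNA exons and in 56.6% of the 7929 tested exons with an annotated sequence. A first base of G was found in 38.7% and 43.6% of them. The median GC content was 46.3% and 47.5%.

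A second pair of duplicated exons was called in LINC01106 (chr2:110377650-110377834, minus strand) and LINC01123 (chr2:109993635-109993819, plus strand). Their 185-nt exons are identical over their whole length, so 1 sequence stands for both. The first 30 bases are given with the first base in capitals, and the last 30 with the final 2 in capitals.
LINC01106 and LINC01123, start: Ctgatgatataaactggctcatttgatgcc
LINC01106 and LINC01123, end: cccctgagtggatacaatgctcactaagTG

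Of the 1172 exons, 344 in 237 genes had enough reads to be tested, or 29.4%, against 34.4% of the 21811 protein-coding exons chosen by the same read minimum. Of the 828 untested exons, 325 fell short only in the SSE mimetic pool, 22 only in the scrambled pool and 481 in both, and 61 had no isoform-specific read in the SSE mimetic pool. The read minimum in the scrambled group set the edge of the set. The 141 exons with exactly 5 such reads had a median Ψ of 0.63 in the scrambled pool and 0.55 in the SSE mimetic pool. The 169 exons left out with 4 reads had 0.59 and 0.54.

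The scrambled pool was deeper in every read class. Summed over the 344 tested exons, inclusion reads numbered 8674 in the SSE mimetic pool and 21483 in the scrambled pool, a ratio of 2.48, against 4.66 over all 8228 tested exons. Skipping reads summed over exons numbered 386 and 3541, a ratio of 9.17 against 6.65, but exons that share a skipping junction count its reads again, and CYTOR and MIR4435-2HG supplied 252 and 2857 of them. With each junction counted once, skipping reads numbered 142 and 1052, a ratio of 7.41 against 6.46 over all tested exons. Without these 2 genes the ratio was 5.71, below that of all tested exons. Reads matching neither isoform, which can include reads of the flanking introns, had a ratio of 1.75 against 1.89. The sums of inclusion reads and of reads matching neither isoform also count reads again for overlapping forms and copied exons. They were not corrected for this. The part these ratios play in the differences of Ψ was not tested. Of 7 genes listed as markers of mesenchymal and basal breast cancer lines, 5 had an event. In the best event of each in the scrambled pool, CD44 had 10893 reads, AXL 1090, FN1 371 and SPARC 173. The other, KRT8 with 951 reads, and KRT18 were also on that list, but these keratins are not particular to such lines. The 5 of 7 luminal markers with an event reached 6 to 92, the 3 of 5 immune markers 17 to 34 and the 2 of 3 endothelial markers 13 to 37, and VIM, KRT18 and EPCAM had none.

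**Figure D1:**
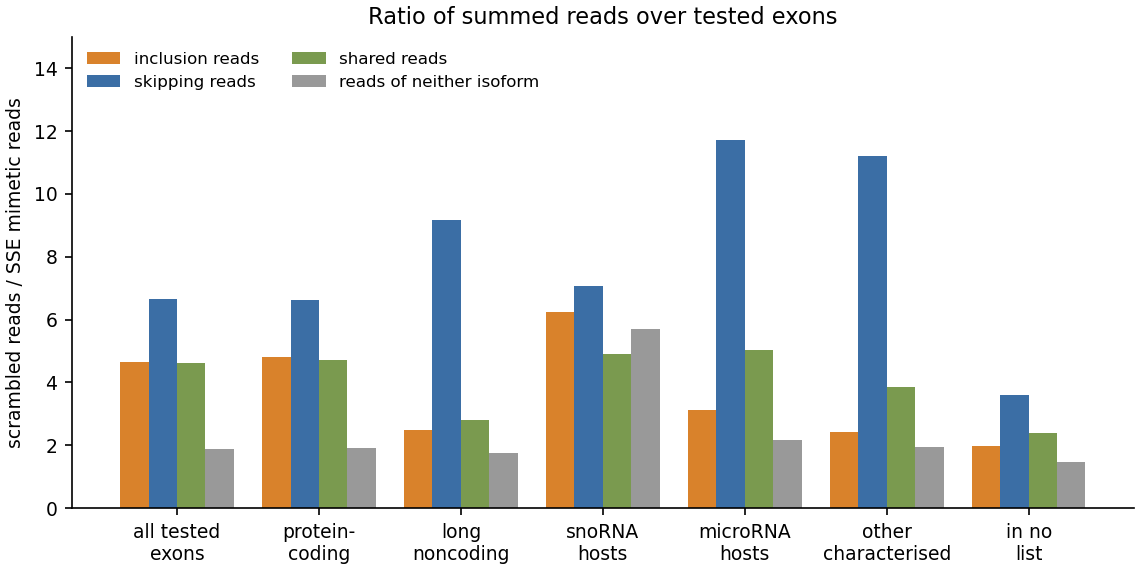
Reads of the scrambled pool divided by reads of the SSE mimetic pool (y axis, linear, from 0), summed over the tested exons of each group on the x axis, with 1 bar per read class. Reads of a shared junction, or shared by overlapping or copied exons, count once per exon. For long noncoding exons the inclusion ratio is 2.48 and the skipping ratio 9.17 (7.41 with each junction counted once, and 5.71 when CYTOR and MIR4435-2HG are also left out), while snoRNA host exons have 6.24 and 7.08 and exons of genes in no list 1.99 and 3.61.

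With the scrambled oligo, long noncoding RNA exons sat at intermediate levels more often than other exons. Ψ lay between 0.1 and 0.9 for 246 of 344 exons (71.5%), against 41.9% of all tested exons. It was over 0.9 for 91 (26.5% against 45.9%) and under 0.1 for 7 (2.03% against 12.2%). The median was 0.83 in the scrambled pool and 0.81 in the SSE mimetic pool, against 0.89 and 0.82 over all tested exons. These exons were longer, with a median of 261.5 nt against 157 nt. They were also less well covered: the median number of isoform-specific reads was 31 against 78 in the scrambled pool and 17 against 19 in the SSE mimetic pool. The median credible interval was 0.33 wide in the scrambled pool and 0.425 in the SSE mimetic pool. For 282 of the 344 (82.0%, against 54.8% of all tested exons) neither pool held a single skipping read, so a Ψ below 1 rested on the balance of inclusion and shared reads and on MISO's prior.

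**Figure D2:**
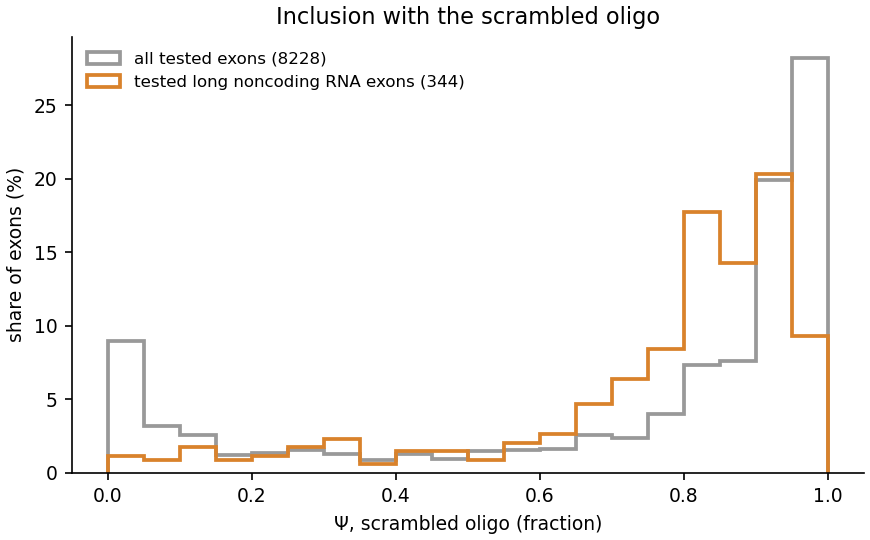
Distribution of Ψ in the scrambled pool (x axis, fraction) for the 344 tested long noncoding RNA exons and all 8228 tested exons (y axis, percent of each set). The noncoding exons have 26.5% above 0.9 and 2.03% below 0.1, against 45.9% and 12.2% of all tested exons.

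Between the pools, 10 tested long noncoding RNA exons were called higher with the SSE mimetic and 1 was called lower, and 333 were not called. The share called higher was 2.91%, against a background of 3.1% of all tested exons, and the share called lower was 1 of 344 against 0.887%. Calls in either direction came to 3.20% against 3.99%, so the shares lay near the background. The median difference was -0.02 (interquartile range -0.07 to 0.05) against -0.03 over all tested exons (-0.09 to 0.03), with 134 exons above 0, 197 below and 13 at 0. A two-sided Fisher's exact test on inclusion and skipping reads, which compares the libraries and not the conditions, passed an adjusted p of 0.05 for 4 exons, against 1.01% of all tested exons. All 4 were called exons of CYTOR and MIR4435-2HG, and the other called exons did not pass. The credible intervals of the pools did not overlap for 15 exons (4.36%, against 5.87% of all), among them all 11 called.

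**Figure D3:**
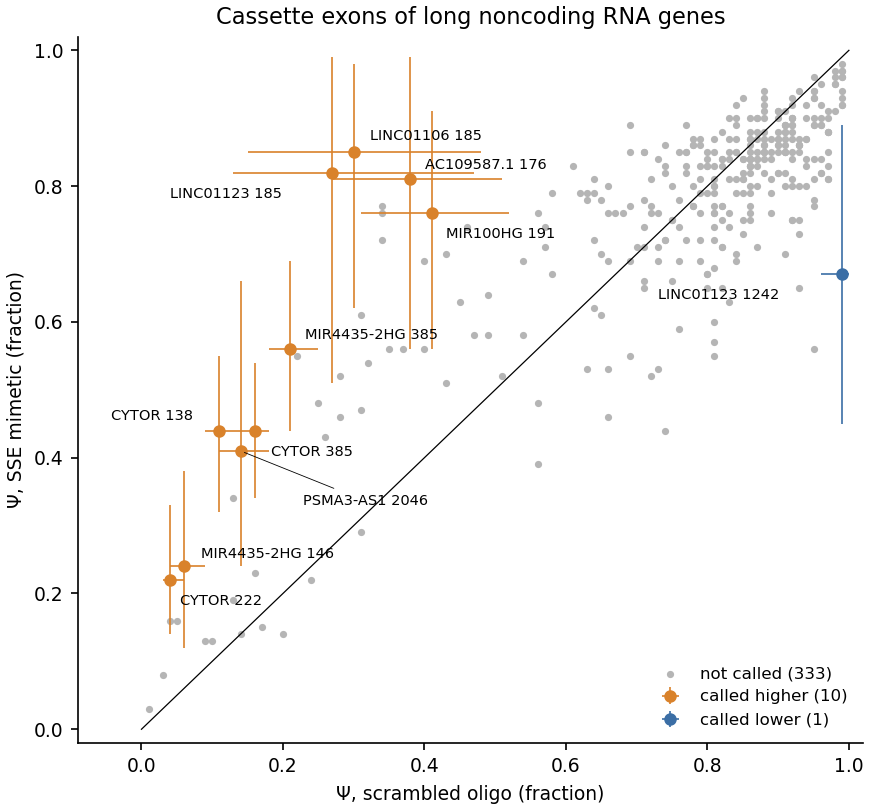
Ψ with the SSE mimetic (y axis) against Ψ with the scrambled oligo (x axis) for the 344 tested exons, both as fractions, with the line of equality. Called exons are labelled by gene and length in nt, and bars are 95% credible intervals; the 10 called higher all had a scrambled Ψ of 0.41 or less.

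The calls were not spread evenly over the scrambled level. All 10 exons called higher had a scrambled Ψ under 0.5. Of the 39 exons between 0.1 and 0.5, 8 were called higher (20.5% called, against 19.4% of all tested exons in that range), with a median difference of 0.21 against 0.18. Of the 7 exons under 0.1, 2 were called higher, against 7.39% of all tested exons in that range. None of the 207 between 0.5 and 0.9 was called, against 1.3%, with a median difference of -0.01. The exon called lower was among the 91 over 0.9, where 1.16% of all tested exons were called, and their median difference was -0.06 against -0.07. By gene type, lincRNA genes held 7 of the higher calls and the lower call among 138 tested exons, antisense genes 2 higher calls among 104, and processed transcript genes 1 among 99.

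CYTOR held 3 of the exons called higher. Its 7 tested exons were read against 1 and the same skipping junction, which had 28 reads in the SSE mimetic pool and 312 in the scrambled pool, so their differences are not independent. The 138-nt exon (chr2:87503487-87503624) reached a Ψ of 0.44 (0.32 to 0.55) in the SSE mimetic pool against 0.11 (0.09 to 0.14) in the scrambled pool, from 38 and 68 inclusion reads. The 385-nt exon had 0.44 (0.34 to 0.54) and 0.16 (0.14 to 0.18), from 68 and 171 inclusion reads. For both, the Bayes factor was at the program's cap of 1e12. Both intervals with the mimetic lay well above those with the scrambled oligo.

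The first exon of CYTOR that was called, of 222 nt (chr2:87455752-87455973), had a Ψ of 0.22 (0.14 to 0.33) and 0.04 (0.03 to 0.06), from 20 and 27 inclusion reads, with a Bayes factor of 186866. This exon overlaps an exon on the opposite strand, and its closest copy lay in AC017002.1, at 99.55% identity. When the read density of the flanking introns was subtracted before Ψ was recomputed, its difference went from 0.18 to 0.0163 and the call was lost. That subtraction left this exon no inclusion read in either pool. The 385-nt and 138-nt exons kept their calls there, with differences of 0.213 and 0.301. With the scrambled reads scaled down, the 222-nt exon kept its call, with a difference of 0.179. By Fisher's exact test on inclusion and skipping reads, all 3 passed, with adjusted p of 1.28e-05, 2.36e-07 and 1.88e-07 for the 222-nt, 385-nt and 138-nt exons.

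The forms of the 385-nt CYTOR exon differed from one another. The 201-nt form had 18 inclusion reads in the SSE mimetic pool against 191 in the scrambled pool, and a Ψ of 0.22 against 0.24. The 140-nt form had 7 and 57 inclusion reads, and a Ψ of 0.13 and 0.10. Neither was called, and only the form with the additional 184 bases at its 3′ end was. After intron subtraction the 201-nt form was called lower, by -0.185, but the subtraction left it no inclusion read in the SSE mimetic pool. The other CYTOR exons, of 155 nt and 146 nt, had a Ψ of 0.08 and 0.16 with the SSE mimetic against 0.03 and 0.05, and were not called.

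MIR4435-2HG held 2 exons called higher among 7 tested, which used 4 skipping junctions. Its 385-nt exon, the counterpart of the CYTOR exon shown above, reached a Ψ of 0.56 (0.44 to 0.69) in the SSE mimetic pool against 0.21 (0.18 to 0.25) in the scrambled pool. Inclusion reads numbered 58 and 138 and skipping reads 14 and 168, with a Bayes factor of 307192271 and an adjusted p of 2.92e-05 by Fisher's exact test. The difference of 0.35 was 0.311 after intron subtraction and 0.34 with the scrambled reads scaled down, and was called in both.

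The 146-nt exon of MIR4435-2HG (chr2:111477336-111477481) had a Ψ of 0.24 (0.12 to 0.38) and 0.06 (0.04 to 0.09) from 9 and 20 inclusion reads, with a Bayes factor of 12.4. It was not called with the scrambled reads scaled down (difference 0.156) or after intron subtraction (0.0416). The subtraction left it no inclusion read in either pool. Among the uncalled exons, the 2015-nt exon had 0.47 against 0.31 from 180 and 739 inclusion reads, and the 195-nt exon 0.56 against 0.95. After intron subtraction the difference of the 2015-nt exon turned from 0.16 to -0.109, also not called. The differences within this gene thus ran from -0.39 to 0.35.

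**Figure D4:**
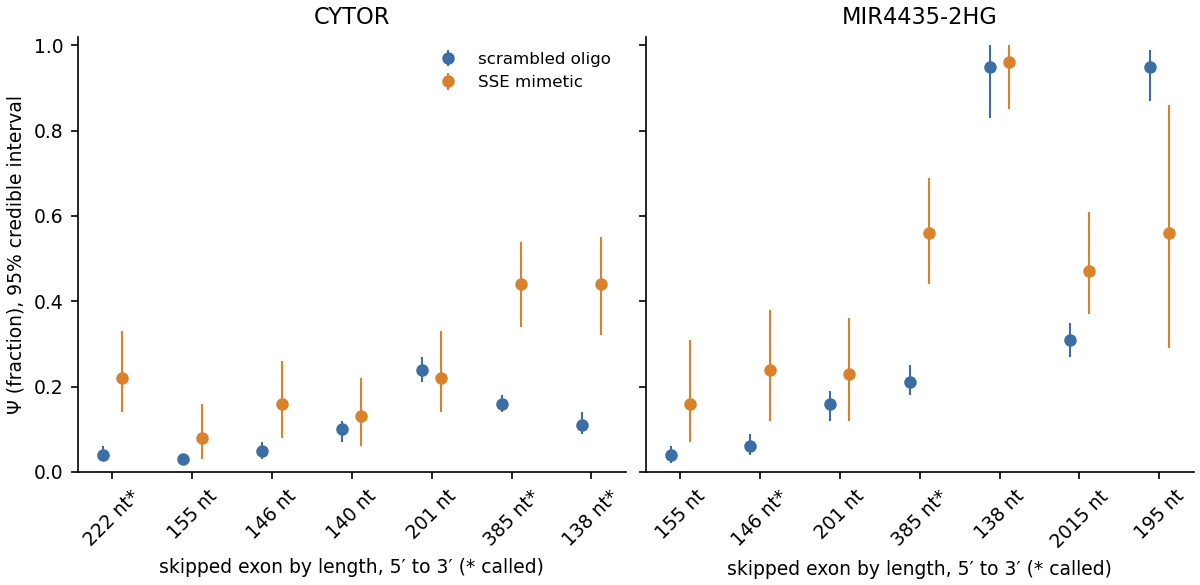
Ψ (y axis, fraction) of the 7 tested exons of CYTOR and the 7 of MIR4435-2HG, ordered from 5′ to 3′ along each gene and named by length in nt, in both pools with 95% credible intervals; an asterisk marks a called exon. The 385-nt exons stand at 0.44 and 0.56 with the SSE mimetic against 0.16 and 0.21, and the 138-nt exon of MIR4435-2HG, identical to that of CYTOR, at 0.96 against 0.95.

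The copies do not give independent readings. The 138-nt exon of MIR4435-2HG (chr2:111447212-111447349) is identical to that of CYTOR and had the same 38 and 68 inclusion reads. It had 0 skipping reads in each pool and a Ψ of 0.96 and 0.95, and was not called. The 146-nt exons of both genes are identical too, with 10 and 29 inclusion reads in CYTOR, where the exon was not called (Bayes factor 1.95). The 385-nt exons, with 4 differences, had 68 and 58 inclusion reads in the SSE mimetic pool, and 171 and 138 in the scrambled pool. Which locus such reads came from cannot be told apart from these tables.

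The same held for LINC01106 and LINC01123. The shared 185-nt exon had exactly 12 inclusion reads in the SSE mimetic pool and 10 in the scrambled pool in either gene, and no skipping read. In LINC01106 its Ψ was 0.85 (0.62 to 0.98) and 0.30 (0.15 to 0.48), with a Bayes factor of 72.3. In LINC01123 it was 0.82 (0.51 to 0.99) and 0.27 (0.13 to 0.47), with a Bayes factor of 48.6. These differences of 0.55 were the largest of the tested long noncoding RNA exons. The shared reads numbered 94 and 407 in LINC01106 and 89 and 399 in LINC01123. With the scrambled reads scaled down the differences were 0.483 and 0.48 and were no longer called. After intron subtraction neither exon had inclusion or skipping reads left in both pools, so no difference was computed.

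LINC01123 also held the exon called lower, of 1242 nt (chr2:109987561-109988802), which overlaps an exon on the opposite strand. Its Ψ was 0.67 (0.45 to 0.89) in the SSE mimetic pool against 0.99 (0.96 to 1.0) in the scrambled pool, from 44 and 331 inclusion reads, 53 and 90 shared reads and no skipping read. The Bayes factor was 10.99, close to the threshold. The exon was not called when a 2-isoform likelihood was applied to the same reads, where the difference was -0.285. After intron subtraction no difference could be computed, because inclusion or skipping reads were not left in both pools.

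Outside these copied genes, 3 exons were called, all higher. MIR100HG is the host gene of a microRNA cluster that includes miR-100, and its 191-nt exon (chr11:122116133-122116323, minus strand) overlaps a protein-coding exon on the same strand. That exon had a Ψ of 0.76 (0.56 to 0.91) and 0.41 (0.31 to 0.52) from 31 and 60 inclusion reads, with 2 and 8 skipping reads and a Bayes factor of 15.38. The call was lost with the scrambled reads scaled down (difference 0.345) and kept after intron subtraction (difference 0.65). That subtraction left no inclusion read in the scrambled pool, whose isoform-specific reads were then its 8 skipping reads alone. The value of 0.65 thus rests on an emptied read class. The other 3 tested exons of MIR100HG were not called. The 1480-nt exon stood at 0.87 in both pools, the 299-nt exon at 0.87 against 0.91 and the 300-nt exon at 0.52 against 0.72.

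PSMA3-AS1 is transcribed antisense to the proteasome subunit gene PSMA3. Its 2046-nt exon (chr14:58293766-58295811, minus strand) had a Ψ of 0.41 (0.24 to 0.66) and 0.14 (0.11 to 0.18), with 70 and 159 inclusion reads, 1 and 8 skipping reads and a Bayes factor of 24.81. After intron subtraction the difference went from 0.27 to 0.0405 and the call was lost. No inclusion read was left in either pool there. With the scrambled reads scaled down the difference was 0.275 and the call was kept. A 166-nt exon of the gene, with 15 and 134 inclusion reads, had 0.75 against 0.93 and was not called.

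AC109587.1 is an antisense gene on chromosome 3. Its 176-nt exon (chr3:69034975-69035150, plus strand) overlaps a protein-coding exon on the opposite strand, and no source used here gives the strand setting of the read assignment. The exon had a Ψ of 0.81 (0.56 to 0.99) and 0.38 (0.27 to 0.51) from 23 and 43 inclusion reads, no skipping read and a Bayes factor of 44.21. The difference of 0.43 was 0.398, and not called, with the scrambled reads scaled down. After intron subtraction it was 0.517, and called.

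Exons with near-identical copies held most of the calls, all of them in the 2 gene pairs described above. Of the 344 tested exons, 56 had a copy of at least 95% identity over at least 90% of their length in an annotated transcript elsewhere. Of these 56, 7 were called (12.5%), all higher, while of the other 288 exons 3 were called higher and 1 lower (1.39%). Outside the 4 genes of these pairs, the 41 tested exons with a copy held 0 calls, and 3 of all 327 tested exons were called (0.917%). In 3 sets of exons from different genes, 7 tested exons in all, length and isoform-specific reads were identical. One such set comprised CU633904.1, CU633967.1 and CU634019.1 on chromosome 21, with 19 and 32 inclusion reads each and a Ψ of 0.76, 0.77 and 0.72 with the SSE mimetic against 0.34, and none of these was called. The part that copies play in the calls was not tested beyond these counts.

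Exons of small nucleolar RNA host genes were mostly kept in both pools. These genes are spliced so that small nucleolar RNAs can be released from their introns, and their spliced transcripts carry short exons. Of 35 exons in 13 such genes, 20 in 9 genes were tested and 0 were called, against 3.99% of all tested exons and 1.16% of those with a scrambled Ψ over 0.9. Their median Ψ was 0.97 in the scrambled pool and 0.87 in the SSE mimetic pool, and 16 of the 20 differences were below 0, with a median of -0.055. Over all tested exons the median was -0.03, and over the 3779 with a scrambled Ψ over 0.9 it was -0.07, with 3594 of them below 0. The ratio of scrambled to SSE mimetic reads was 6.24 for inclusion reads and 5.71 for reads of neither isoform, against 2.48 and 1.75 for long noncoding exons as a whole. For skipping reads, with each junction counted once, it was 7.08 against 7.41, or against 5.71 without CYTOR and MIR4435-2HG.

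ZFAS1, an antisense transcript that hosts box C/D small nucleolar RNAs, had the best-covered exon of the listed genes. That 86-nt exon (chr20:49280485-49280570) stood at 0.92 (0.85 to 0.98) in the SSE mimetic pool against 0.99 (0.98 to 0.99) in the scrambled pool. It had 77 and 1158 inclusion reads and 3 and 11 skipping reads, and the Bayes factor was 0.5. A 62-nt exon of ZFAS1 stood at 0.66 against 0.71 and a 67-nt exon, nearly always skipped, at 0.03 against 0.01. In that gene the order of the exons, from mostly kept to mostly skipped, was thus alike in both pools.

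SNHG5 had 8 tested exons, the most of any gene, with 5 skipping junctions. All 8 were nearly always kept with the scrambled oligo, at 0.97 to 0.99, and stood at 0.85 to 0.97 with the SSE mimetic, with differences of -0.12 to -0.01. Its 238-nt exon had 106 and 534 inclusion reads and no skipping read. GAS5, a growth-arrest transcript and host of many small nucleolar RNAs, had a 221-nt exon at 0.70 (0.39 to 0.95) against 0.91 (0.76 to 0.99), with 41 and 263 inclusion reads and a Bayes factor of 0.62. The difference of -0.21 was the largest of the host genes in size, but the intervals overlapped. It was -0.14 by the 2-isoform likelihood, 0.0 with the scrambled reads scaled down and 0.0392 after intron subtraction. In SNHG16 a 227-nt exon stood at 0.43 against 0.26 and a 99-nt exon at 0.48 against 0.56, neither of which was called. In SNHG6 a 112-nt exon stood at 0.86 against 0.78, and in EPB41L4A-AS1 a 73-nt exon at 0.96 against 0.99.

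**Figure D5:**
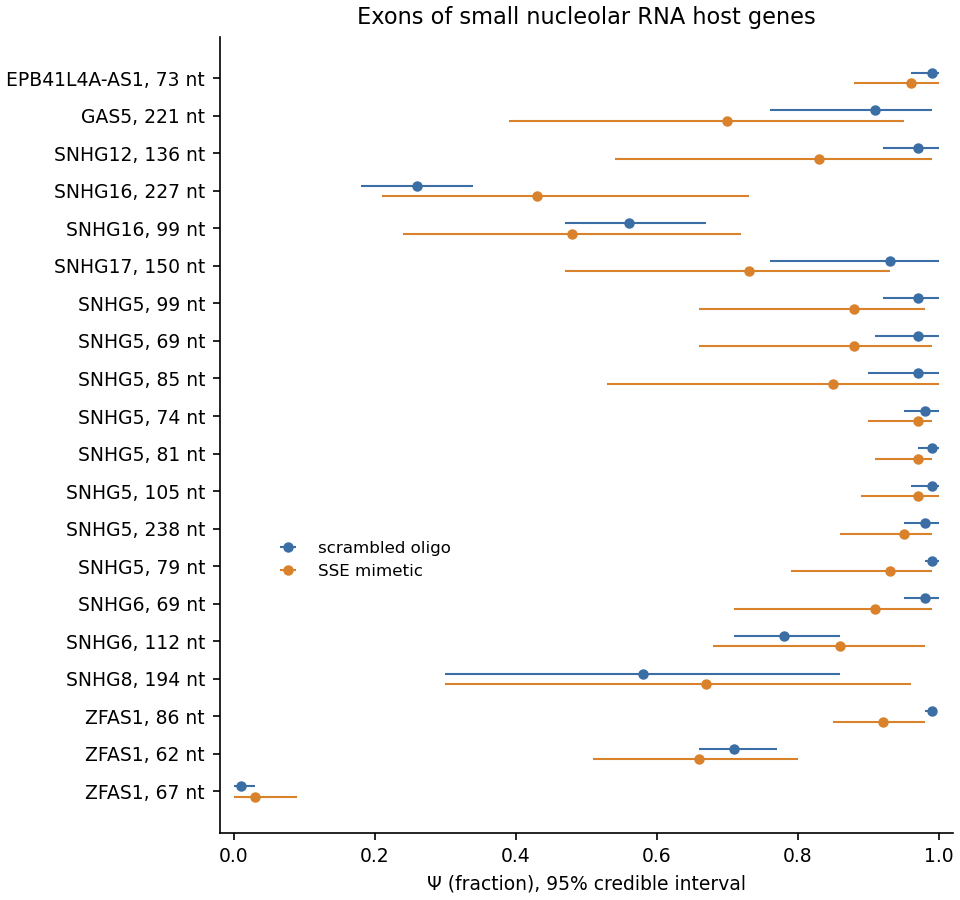
Ψ (x axis, fraction) of the 20 tested exons of small nucleolar RNA host genes (y axis, gene and exon length in nt) in both pools, with 95% credible intervals. Most exons lie near 1 with the scrambled oligo, 16 of the 20 lie lower with the SSE mimetic, and none was called.

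The nuclear and chromatin-associated RNAs on the list gave 3 tested exons, and none was called. JPX and FTX are neighbours in the X-inactivation centre. The 1142-nt exon of JPX had a Ψ of 0.29 (0.17 to 0.46) and 0.31 (0.26 to 0.37), from 30 and 268 inclusion reads. The exons of FTX, of 202 nt and 206 nt, stood at 0.82 and 0.85 with the SSE mimetic against 0.74 and 0.69, with 16 and 15 inclusion reads against 37 and 37.

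Among other characterised RNAs, 33 exons in 18 genes were tested, and the 4 called (12.1%, against 3.99% of all tested exons) were the 3 CYTOR exons, which share a junction, and that of PSMA3-AS1. The median difference over the 33 was -0.02. The exons of UCA1, an RNA first described in bladder cancer, stood at 0.82 to 0.85 with the SSE mimetic against 0.77 to 0.87. LUCAT1, an RNA induced by stress, had a 935-nt exon at 0.89 against 0.92 and a 768-nt exon at 0.83 against 0.74. HCG18, from the major histocompatibility region, had a 494-nt exon at 0.84 (0.63 to 0.97) against 0.96 (0.87 to 1.0). CCDC18-AS1 had a 1898-nt exon at 0.79 against 0.85, and TTN-AS1, antisense to the titin gene, a 1193-nt exon at 0.79 against 0.86. The Bayes factors of the uncalled exons named here were all under 1.

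Genes in no list held 275 of the tested exons, with 3 called higher and 1 lower (1.45%, against 3.99% of all tested exons). Of the best-covered exons of 6 such genes, only the 1242-nt exon of LINC01123, described above, was called. LRRC75A-AS1 had an 88-nt exon that was kept almost throughout, at 0.98 (0.95 to 1.0) and 0.99 (0.98 to 1.0) from 127 and 657 inclusion reads, and its 5 tested exons differed by -0.07 to 0.04 at levels from 0.09 to 0.99. The long exons of LINC01427 (4120 nt), C1RL-AS1 (3292 nt) and ERVK13-1 (3160 nt) stood at 0.88, 0.80 and 0.85 with the SSE mimetic against 0.92, 0.93 and 0.83. LINC01001 had a 686-nt exon at 0.94 against 0.95. In the other genes with at least 4 tested exons, differences ran from -0.16 to 0.02 in MUC20-OT1 (7 exons), from -0.02 to 0.20 in AC239809.3 (4 exons) and from -0.09 to -0.02 in LINC01002 (4 exons). None of these exons was called.

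Calls did not follow exon length in a steady order. None of 16 exons under 100 nt was called, 7 of 187 between 100 and 299 nt and 2 of 109 between 300 and 999 nt were called higher, and of 32 exons of 1000 nt or more 1 was called higher and 1 lower. Over all tested exons the shares called were 1.26%, 4.03%, 5.74% and 9.55% in the same bins. By overlap, 52 of the 344 tested exons overlapped an exon on the opposite strand, 33 of them one of a protein-coding gene, and 28 overlapped another gene's exon on their own strand. Among the 273 that overlapped none, 7 were called higher and 0 lower.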

How the data were processed

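RNA sequencing was deposited for 4 samples of MDA-LM2 cells, 2 per group, as 1 skipped-exon summary per group and 1 comparison. Per the labels' protocols, column-purified, DNase-treated total RNA went into ScriptSeq v2 libraries. The submitters' processing notes name STAR 2.7 and the hg38 build. No source used here gives the way samples were combined, the MISO version or the strand setting. The deposited Ψ is a fraction with a 95% credible interval, and the deposited Bayes factor is a ratio capped at 1e12. Read numbers per class are deposited as text.

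For each distinct skipped exon, the best-covered event (inclusion plus skipping reads) was kept. Exons were matched by exact coordinates and strand to GENCODE release 29, and sequences come from its transcripts. Copies were sought with BLAST 2.17.0. Fisher p-values were Benjamini-Hochberg adjusted over all 8228 tested exons with scipy 1.17.1. A 2-isoform likelihood with a read length of 76 nt was tested on simulated data and correlated at 0.997 and 0.999 with the deposited Ψ across exons, which are not independent replicates. It was run on the deposited reads, and on scrambled reads scaled down exon by exon to the SSE mimetic total of that exon. It was also run after subtraction of the flanking introns' density of reads matching neither isoform. Where that density exceeded a pool's inclusion or shared reads, none of them were left. Intervals cover counting error only, and reads are not independent molecules.

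Named exons were up to 12 called per direction (1 per gene), the best-covered exon of 15 listed genes and of 6 unlisted genes, and, as a range, genes with at least 4 tested exons. Other exons of these genes, exons of other listed genes and the exons with copies were chosen after their values were seen. The exons, the gene lists and the tests were chosen with earlier results of these data known.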

Additional observations from a re-analysis of the deposited data

How the results depend on the processing

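No paired analysis was possible because each group was deposited as 1 pooled read set, so no sample could be left out either. The counts of 10 exons called higher and 1 called lower depended on several choices. A Bayes factor of at least 100 gave 4 higher and 0 lower, and Fisher's exact test in its place gave 4 and 0 (9 exons had an unadjusted p under 0.05). The inclusion share in place of Ψ gave 5 and 0, with a median difference of 0.0. A minimum of 5 reads gave 3 lower among 723 exons, and a minimum of 20 reads gave a median of -0.01 among 143. With lincRNA and antisense genes alone the median was -0.01. Without exons that overlap another gene's exon, 0 were lower. Without exons that have a near-identical copy, an alternative chosen after seeing the data, 3 were higher. The 2-isoform likelihood gave 0 lower. With scrambled reads scaled down it gave 5 higher and 0 lower, and the median turned from -0.02 to 0.0093. After intron subtraction it gave 5 higher and 3 lower among the 183 exons with reads left. The CYTOR exons of 385 nt and 138 nt and the MIR4435-2HG exon of 385 nt were called under all 3 forms of the likelihood. The causes of these shifts were not tested. Depth limits the set most in the SSE mimetic pool, where the median exon had 17 isoform-specific reads.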

Other observations

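Among the 828 exons too shallow to be tested, 9 passed the Bayes factor and the difference, 4 higher and 5 lower, and 4 of the 5 lower are 2 pairs of overlapping forms of an exon with nearly the same reads. The share over all untested exons is not given here, so the count of 9 has no background beside it. The exons named below were picked with the values known. LINC00310 held 2 overlapping exons, of 411 nt and 485 nt, at 0.28 and 0.25 with the SSE mimetic against 0.90 and 0.84, with 4 inclusion reads each against 26 and 28. An 82-nt exon of MIR100HG stood at 0.36 (0.08 to 0.64) against 0.92 (0.79 to 0.99), from 4 and 68 inclusion reads, the opposite direction to the called exon of that gene. LINC01184 had 2 exons that differ by a few bases at one end, 219 nt and 222 nt long, at 0.43 and 0.45 against 0.88.

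The higher ones were an exon of LAMTOR5-AS1 (0.81 against 0.21, with 12 and 8 inclusion reads), 1 of LIX1L-AS1 (0.41 against 0.07, with 6 in each pool) and 2 of DLEU2, a host gene of miR-15a and miR-16-1 in a region often deleted in chronic lymphocytic leukaemia. The DLEU2 exons, of 115 nt and 60 nt, stood at 0.79 and 0.71 against 0.26 and 0.06. Skipping reads numbered 0 with the SSE mimetic for both, against 15 and 9. The 60-nt exon had no inclusion read in either pool, so its Ψ with the SSE mimetic rested on 2 shared reads.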
